A study of Mus musculus with 40 samples.

Results

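Car8 and 9 other genes of the carbonic anhydrase family were followed in the brains of mice that lack, or carry, the α-tocopherol transfer protein gene Ttpa. The members were Car2, Car3, Car4, Car7, Car8, Car10, Car11, Car12, Car13 and Car14, chosen by gene name: every array probe named for one of these 10 genes was taken. The members were 10 of 19866 genes that the arrays measure with a probe matched to RefSeq. They had 12 of the 55589 gene probes kept, with 2 probes each for Car4 and Car8 and 1 for each other member. The family was selected on Car8, which was picked for its cortical values in aged Ttpa-/- mice on the deficient diet, aged normal-diet wild-type mice and young wild-type mice. It was also picked for a lack of significant change with age in wild-type cerebellum on the normal diet. Those cortical values of Car8, and its change with age in the cerebellum, are therefore given as a description without a test. The question asked of the other comparisons was whether the loss in Ttpa-/- mice was confined to Car8.

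RNA of cerebral cortex or cerebellum was measured on 40 Agilent arrays with a single dye, 4 mice for each of 10 groups. The sources used here name C57Bl/6 only for mice of an ischemia model and give no strain for the mice of these arrays. They do not say how far the Ttpa-/- and wild-type mice matched around Ttpa. In each region the groups were wild-type mice of 2 months on the normal diet (36 mg of α-tocopherol/kg), wild-type mice of 29 months on that diet, and wild-type mice of 29 months on an α-tocopherol-deficient diet. The other groups were Ttpa-/- mice of 29 months, given either the deficient diet or a supplemented diet (600 mg of α-tocopherol/kg). The groups hold no Ttpa-/- mice on the normal diet, and the supplemented diet was given only to Ttpa-/- mice. α-Tocopherol is the main form of vitamin E, and its transfer protein keeps it in the circulation.

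Carbonic anhydrases are zinc enzymes that turn carbon dioxide and water into bicarbonate and a proton and back, and in the brain they buffer the fluid in and around neurons and glia. Car2, Car3, Car7 and Car13 encode cytosolic enzymes, Car4 an enzyme anchored to the outer face of the membrane, and Car12 and Car14 transmembrane enzymes with an outward active site. Car8, Car10 and Car11 encode related proteins without the catalytic activity. CAR8 is abundant in Purkinje cells of the cerebellum, where it binds the inositol trisphosphate receptor encoded by Itpr1, and mice that lose Car8 are ataxic.

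Levels are log2 intensities relative to the 75th percentile of the array, so a level of 0 equals that percentile, and they can be compared between arrays for a probe but not between probes. The 75th percentile lay between 365 and 925 intensity units, and 51.4% to 61.4% of an array's probes read well above background. A difference was called where it passed both limits, 0.05 for the adjusted p and 1.5 for the fold change. The arrays lay on 5 slides with each group on a single slide, so that slide and group cannot be told apart between slides. Cortical neuron and cerebellar markers separated the regions as labelled, with 7 of 7 and 8 of 8 genes called in the labelled direction at 2 months. In the cerebellum the brighter Ttpa probe was well above background on all 12 wild-type arrays (levels from -4.29 to -2.76), on 0 of 4 Ttpa-/- deficient arrays (from -7.04 to -6.34) and on 1 of 4 Ttpa-/- supplemented arrays (from -6.47 to -5.0), while in the cortex it was above background on 1 array. The dimmer Ttpa probe was above background on a single array of the 40, replicate 2 of the deficient Ttpa-/- cerebellum (-2.67). The place of this probe relative to the deleted part of the gene is not given in the sources used here.

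Car8 was lower in Ttpa-/- mice than in wild-type mice in both regions and on both diets. Its brighter probe lies at chr4:8070545-8070604 and its dimmer one at chr4:8068657-8068716 of mm9, on the minus strand. In the cerebellum the brighter probe read 4.79, 4.68, 4.59 and 4.68 in aged normal-diet wild-type mice, and 4.12, 4.11, 4.40 and 4.90 in those on the deficient diet. It read 1.56, 1.44, 1.77 and 3.65 in Ttpa-/- mice on the deficient diet, and 1.67, 1.87, 1.76 and 1.88 in Ttpa-/- mice on the supplemented diet. Every Ttpa-/- array was below every wild-type array, and replicate 4 of the deficient Ttpa-/- group stood above the other 7 Ttpa-/- arrays. Against wild-type mice on the normal diet, Car8 was 5.97-fold lower in deficient Ttpa-/- mice (log2 difference -2.58, SE 0.48, adjusted p = 0.000569, n = 4 per group) and 7.42-fold lower in supplemented Ttpa-/- mice (-2.89, SE 0.48, adjusted p = 0.000165). With both genotypes on the deficient diet it was 4.84-fold lower in the Ttpa-/- mice (-2.27, SE 0.48, adjusted p = 0.00182). These comparisons share groups, and the wild-type and Ttpa-/- arrays of the cerebellum lay on different slides. The aged normal-diet arrays also entered the choice of Car8, by its lack of significant change with age in the cerebellum. The comparison on the deficient diet used no array of that choice. It did use the cerebellum of the deficient Ttpa-/- group, whose cortex led to the choice. Whether both regions came from the same mice is not given, so the comparison may not be independent of the choice. Without the arrays numbered 4 of both regions, a choice made after seeing the data, the difference in deficient Ttpa-/- mice was -3.09 against the normal diet (adjusted p = 8.87e-07) and -2.79 against the deficient diet (adjusted p = 5.66e-06). With only the 2 groups fitted, the comparison on the deficient diet missed the threshold (adjusted p = 0.0625).

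The dimmer Car8 probe gave the same order of genotypes in the cerebellum. It read from 4.10 to 4.25 in aged normal-diet wild-type mice and from 3.82 to 4.34 on the deficient diet. In Ttpa-/- mice it read 1.33, 1.27, 1.53 and 3.29 on the deficient diet and from 1.22 to 1.44 on the supplemented diet. The 3 differences were -2.34, -2.87 and -2.25 (SE 0.35 each), with adjusted p of 3.71e-05, 1.96e-06 and 6.06e-05.

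In the cortex, where Car8 was dim, the brighter probe read -2.37, -2.27, -2.69 and -2.58 in aged normal-diet wild-type mice, and -3.43, -3.24, -2.67 and -2.31 on the deficient diet. In Ttpa-/- mice it read -5.71, -4.61, -7.13 and -3.32 on the deficient diet, with 2 of 4 arrays well above background, and -6.17, -6.08, -4.90 and -6.30 on the supplemented diet, with 0 of 4. Replicate 4 was again the highest of the deficient Ttpa-/- arrays, and it overlapped the lowest wild-type array on the deficient diet. Against aged normal-diet wild-type mice, the comparison behind the choice of Car8, the measured difference in deficient Ttpa-/- mice was -2.71, and with another background correction, normexp, it was -1.02. On the intensities used here, supplemented Ttpa-/- mice were at least 4.05-fold lower than those wild-type mice. This bound was set by the lowest level of any probe well above background on each array. It did not hold with normexp, where the log2 difference was -1.18. The dimmer probe was well above background on 0 of the 8 Ttpa-/- arrays and on 1 of the 4 wild-type arrays on the deficient diet.

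The cortical comparison of supplemented Ttpa-/- mice with wild-type mice on the deficient diet used none of the groups by which Car8 was picked, and its arrays shared a slide. On the intensities used here Car8 was at least 3-fold lower in the Ttpa-/- mice, a bound because none of their 4 arrays was well above background. The bound was set in the same way and did not hold with normexp. Car8 entered this test through the wild-type arrays alone (mean -2.91), so the fitted log2 difference of -2.95 (SE 0.48, adjusted p = 0.00547) is one from background readings (mean -5.86). Of 28445 probes tested there, 9 were called (0.0316%), and 1 of the 10 members, Car8, was among them. The call was lost when only these 2 groups were fitted (adjusted p = 0.585) and with the normexp correction (-0.96, adjusted p = 0.215). The diets of these groups differed too, so that genotype and supplementation cannot be told apart.

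**Figure D1:**
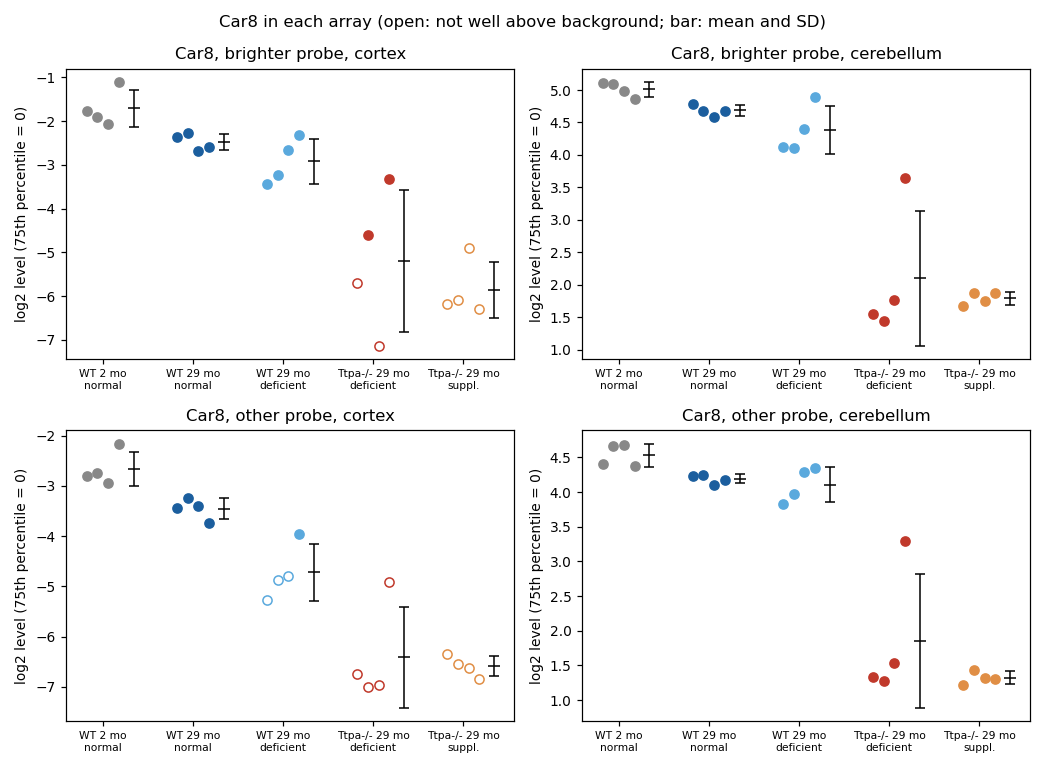
Level of both Car8 probes in each array of the cortex and the cerebellum, as log2 intensity relative to the 75th percentile of the array. Points are arrays, open where the probe was not well above background, and bars give the mean and SD of 4 arrays. All 8 Ttpa-/- arrays of the cerebellum lie below the wild-type arrays, with replicate 4 of the deficient group at 3.65 on the brighter probe.

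In the cerebellum the brighter Car8 probe had means of 5.01 ± 0.12 (SD, n = 4) in young wild-type mice, 4.69 ± 0.08 in aged normal-diet wild-type mice and 4.38 ± 0.37 in those on the deficient diet. The means were 2.11 ± 1.04 in deficient and 1.79 ± 0.10 in supplemented Ttpa-/- mice. Young and aged wild-type mice differed by -0.33 with groups that did not overlap, which is given as a description without a test. The 2 diets in aged wild-type mice were not called (difference -0.30, 95% interval -1.27 to 0.67, adjusted p = 0.752), nor were the 2 diets in Ttpa-/- mice (0.31, interval -0.66 to 1.28, adjusted p = 0.922), and without replicate 4 the latter difference was -0.20. In the cortex, where these levels are a description, the means ran from -1.70 ± 0.42 in young wild-type mice to -5.86 ± 0.65 in supplemented Ttpa-/- mice. The 2 diets differed by -0.43 in aged wild-type cortex, with overlapping groups. The dimmer probe differed by -1.27 there, but only 1 of its 4 arrays on the deficient diet was well above background.

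Car8 was far higher in the cerebellum than in the cortex, which is where its protein is known to be abundant. The difference was 6.72 on the log2 scale at 2 months and 7.16 at 29 months in normal-diet wild-type mice, and the dimmer probe gave 7.20 and 7.64. In whole tissue, fewer cells of a type and less RNA per cell cannot be told apart. Of the Purkinje cell markers, 8 of 9 were on the arrays, and 0 of these 8 were called by limma in any of the 3 cerebellar comparisons of Ttpa-/- with wild-type mice, with 1, 0 and 2 at an unadjusted p under 0.05. Their summed level, in multiples of the array's 75th percentile, ran from 591 to 703 in aged normal-diet wild-type mice and from 563 to 650 on the deficient diet. It ran from 563 to 722 in deficient and from 593 to 855 in supplemented Ttpa-/- mice, so the groups overlapped. The sum is not of Purkinje cells alone, as it was 197 to 226 in aged normal-diet wild-type cortex. Of these markers Itpka was lower in the cerebellum than in the cortex (-1.33 at 2 months, -1.83 at 29 months), while the others were called higher.

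The genes whose levels followed Car8 most closely lay mostly on its chromosome. Over the 20 cerebellar arrays, the highest correlations with the brighter Car8 probe among 20860 named probes above background on at least 10 arrays were those of 4930412C18Rik (r = 0.961), Map3k7 (r = 0.959) and Necab1 (r = 0.928), all on chromosome 4. Over the 20 cortical arrays they were Klhl32 (r = 0.884) and Map3k7 (r = 0.876) on chromosome 4 and 2310008H09Rik (r = 0.864) on chromosome 7, among 20448 named probes. The second Car8 probe itself gave r = 0.994 and r = 0.934. Part of each r came from the differences between groups, those behind the choice of Car8 included. After the group means were subtracted, r was 0.87, 0.765 and 0.751 for the cerebellar genes and 0.699, 0.281 and 0.223 for the cortical ones, in the order above. These arrays share slides and groups, and the correlations are a description. In the cerebellum the SD of Car8 was 1.04 in deficient Ttpa-/- mice, where replicate 4 stood apart, and at most 0.37 in the other groups. That array also stood above the others of its group at the cerebellar genes named here. The r without it was not computed.

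Ttpa lies 11.9 Mb from Car8 on chromosome 4, and the probes near them were counted because of this, in a window of the first 40 Mb of the chromosome that was set after the values were seen. Without Car8, 2 of 207 probes tested in the window were called between supplemented Ttpa-/- and deficient wild-type cortex (0.966%), against 6 of 28237 elsewhere (0.0212%). Between supplemented Ttpa-/- and normal-diet wild-type cortex, 2 of 206 were called (0.971%), against 22 of 28060 elsewhere (0.0784%). The share in the window was also above that elsewhere with both genotypes on the deficient diet in the cortex (4.67% and 3.05%), but below it between deficient Ttpa-/- and normal-diet wild-type cortex (2.34% and 4.76%). In the cerebellum the share in the window was above that elsewhere in each comparison, by little in supplemented Ttpa-/- mice. Deficient Ttpa-/- mice against wild-type mice on the normal diet gave 18 of 235 probes in the window (7.66%) and 4.43% elsewhere, and supplemented Ttpa-/- mice gave 12 of 239 (5.02%) and 4.90% elsewhere. With both genotypes on the deficient diet the shares were 7.59% and 4.92%. The calls in the window included Ttpa, the gene removed in these mice, in each of these cerebellar comparisons. In the order above, 10, 8 and 12 of the calls in the window were lower and 8, 4 and 6 higher. Between the diets in wild-type mice, 0 of 207 cortical and 1 of 241 cerebellar probes of the window were called. For the diets in Ttpa-/- mice these were 7 of 212 cortical (3.3%, against 3.31% elsewhere) and 0 of 226 cerebellar probes. The cortical calls between those diets included the genes Asph and Lyn. Asph was also called between supplemented Ttpa-/- and deficient wild-type cortex, and Lyn between supplemented Ttpa-/- and normal-diet wild-type cortex. The part of this region in the Car8 difference was not tested.

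Replicate 4 of the deficient Ttpa-/- mice stood apart at some other genes of this region and not at others. In the cerebellum, 4930412C18Rik (chr4:9750472-9750531) read -6.96, -5.54, -5.68 and, in replicate 4, -3.07, against -2.34 to -2.12 in aged normal-diet wild-type mice and -3.00 to -2.33 on the deficient diet. Necab1 (chr4:14882135-14882194), which encodes a neuronal calcium-binding protein, read -5.25, -5.28, -5.94 and, in replicate 4, -3.02, against -2.62 to -2.10 on the normal diet. At Map3k7 (chr4:32107645-32107704), which encodes a signalling kinase, replicate 4 read 1.33 beside 0.91, 0.97 and 0.89, against 1.38 to 1.49 in aged normal-diet wild-type mice. That was the Map3k7 probe most correlated with Car8, and on the other 2 probes of the gene replicate 4 lay with the Ttpa-/- arrays. One read -1.70 beside -2.25, -1.83 and -1.99 (-1.41 to -1.12 on the normal diet in wild-type mice), and the other -1.45 beside -1.54, -1.69 and -1.49 (-2.19 to -2.03). The same array was nearer the other Ttpa-/- arrays at further genes. At a probe close to Car8, named NAP095541-001 (chr4:8488286-8488345), it read 2.62 beside 1.89, 2.74 and 2.68, against 2.73 to 3.21. Ttpa itself (chr4:19957856-19957915) read -6.34 in replicate 4 and was not above background there. Klhl32 (chr4:24544420-24544479) read 1.96, 2.00, 1.93 and 2.27 in the 4 deficient Ttpa-/- mice, against 2.77 to 2.89 in aged normal-diet wild-type mice, and on its second probe replicate 4 was the lowest of the 4 (-2.92). In the cortex, 4930412C18Rik read -5.61 in replicate 4, within the range of the other deficient Ttpa-/- arrays (-6.21 to -4.53). NAP095541-001 read 2.51 there, beside 2.52, 2.68 and 2.41. At the Map3k7 probe most correlated with Car8, cortical replicate 4 read 1.18 beside 0.78, 0.85 and 0.88. Aged normal-diet wild-type mice read 1.52 to 1.57 there. The first Klhl32 probe read 1.60 beside 1.36, 1.41 and 1.39 (2.17 to 2.34 in those wild-type mice). Necab1 read 0.09 beside -0.18, -0.10 and -0.20 (0.14 to 0.52). On the second Klhl32 probe cortical replicate 4 was again the lowest (-2.91).

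**Figure D2:**
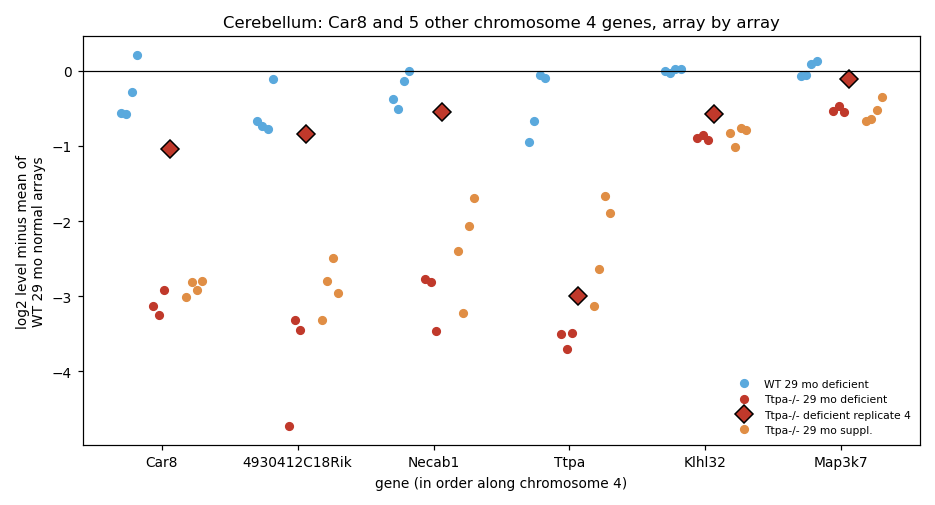
Cerebellar level of Car8 and of 5 other genes of chromosome 4, ordered along the chromosome, in each aged array on the deficient or supplemented diet, as the log2 difference from the mean of the 4 aged wild-type arrays on the normal diet. One probe is shown per gene, for Klhl32 and Map3k7 the one most correlated with Car8. The diamond is replicate 4 of the deficient Ttpa-/- group, which on these probes lies above the other deficient Ttpa-/- arrays, near the wild-type arrays at 4930412C18Rik, Necab1 and Map3k7 and with the Ttpa-/- arrays at Ttpa.

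Among the other 9 members, none was called lower in any of the 7 comparisons of Ttpa-/- with wild-type mice, with the brighter probe standing for Car4. In the cortex of deficient Ttpa-/- mice against normal-diet wild-type mice, the comparison behind the choice of the family, 2 of 10 members were past both limits (Car8 lower, Car4 higher by 0.59), as were 4.75% of all tested probes. That is a description and no test, and Car4 stayed past both limits in 11 of 19 alternatives. Car8 alone was past both limits in supplemented Ttpa-/- against normal-diet wild-type cortex (background 0.092%) and in Ttpa-/- against wild-type cortex on the deficient diet (background 3.07%). Both reuse cortical arrays by which Car8 was picked, so that they are descriptions of Car8 too. With the 2 groups fitted alone Car8 was past both limits in neither, and with normexp it was not in the first, where its Ttpa-/- arrays were all at background. In the cerebellum, Car8 alone of 10 was called in deficient Ttpa-/- mice (background 4.46%) and in supplemented Ttpa-/- mice (background 4.91%), each against the normal diet. With both genotypes on the deficient diet, 2 of 9 tested members were called there, Car8 lower and Car4 higher (background 4.94%). The background counts calls in either direction. The median log2 difference of the 9 members without Car8 lay between -0.30 and 0.14 over these 6 comparisons and the one of supplemented Ttpa-/- with deficient wild-type cortex, beside medians of -0.02 to 0.00 over all probes tested.

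**Figure D3:**
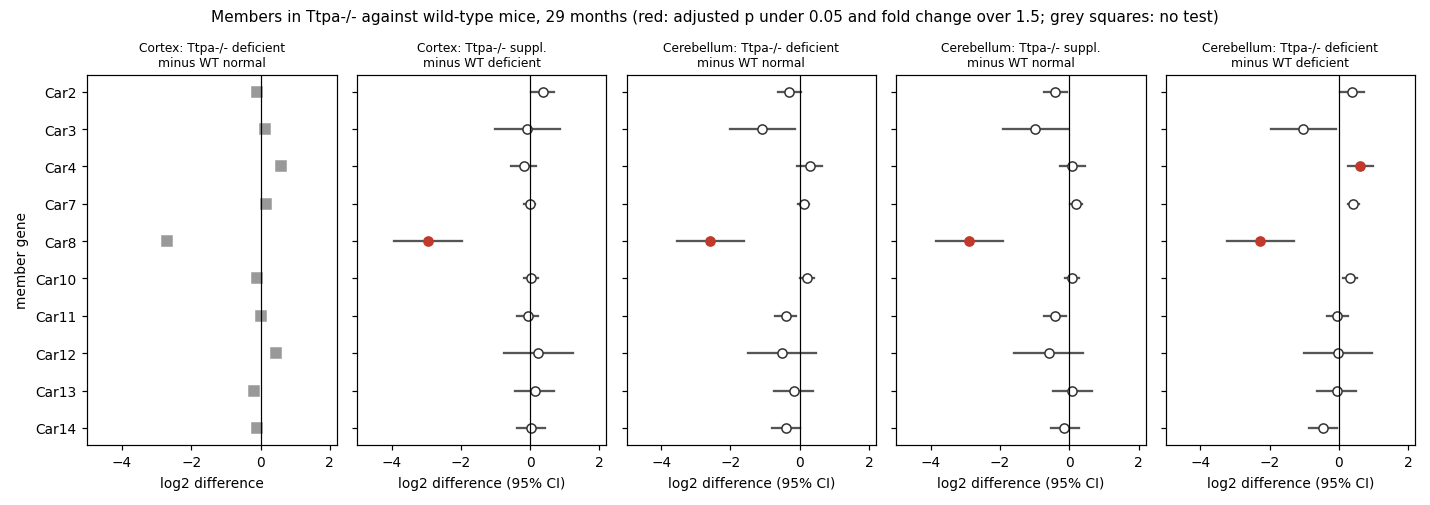
Log2 difference of each member between Ttpa-/- and wild-type mice of 29 months, with its 95% interval where tested, in 2 comparisons of the cortex and 3 of the cerebellum. Red points were called. The first panel, the comparison behind the choice of Car8, has grey squares with no interval and no test. Car8 is at -2.71, -2.95, -2.58, -2.89 and -2.27, and the other red point is Car4 at 0.62.

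Of the catalytically active members, Car4 was the one called in a test of the genotypes. Car4, an enzyme of brain capillaries, read 4.44, 4.41, 4.41 and 4.16 in the cerebellum of deficient Ttpa-/- mice, against 3.41, 3.66, 3.74 and 4.12 in wild-type mice on the same diet. The groups did not overlap, and Car4 was 1.54-fold higher in the Ttpa-/- mice (log2 difference 0.62, SE 0.18, adjusted p = 0.0187). The mean of aged normal-diet wild-type mice lay between (4.06, beside 4.35 and 3.73), and Car4 was not called against that group. The call on the deficient diet was lost without replicate 1 of the wild-type mice (0.52, adjusted p = 0.0952), with a fit of its 2 groups alone (adjusted p = 0.097) and with the mean of the 2 Car4 probes (0.47, adjusted p = 0.0595). The second Car4 probe differed by 0.31 (adjusted p = 0.347) and disagreed with the brighter one elsewhere too. It fell in supplemented Ttpa-/- cerebellum against the normal diet (-0.87, adjusted p = 0.00593) where the brighter probe differed by 0.09, and it was 2.11 higher in the cerebellum than in the cortex at 2 months where the brighter probe differed by 0.25. The 6 endothelial markers gave no call by limma in these comparisons, with 3 at an unadjusted p under 0.05 between the genotypes on the deficient diet in the cerebellum.

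Car3, best known from muscle and fat, was the member with the next largest differences below 0 in the cerebellum. It read -3.57, -4.18, -3.52 and -4.21 in aged normal-diet wild-type mice, -4.15, -4.42, -6.44 and -4.80 in deficient Ttpa-/- mice and -4.69, -4.58, -4.99 and -5.12 in supplemented Ttpa-/- mice. The differences were -1.08 (adjusted p = 0.118) and -0.98 (adjusted p = 0.156), and neither was called. Only 2 and 1 of the 4 Ttpa-/- arrays were well above background. With array weights the first difference passed (-1.36, adjusted p = 0.0429), and the second did when its 2 groups were fitted alone (-0.98, adjusted p = 0.0432).

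Car7, a cytosolic enzyme of neurons, and Car10, one of the inactive members, passed the adjusted p but not the fold change in deficient Ttpa-/- against deficient wild-type cerebellum. Car7 read 2.10, 2.19, 2.15 and 2.04 in the Ttpa-/- mice and 1.57, 1.70, 1.75 and 1.80 in the wild-type mice (difference 0.42, SE 0.08, adjusted p = 0.000866). Car10 differed by 0.33 (SE 0.10, adjusted p = 0.0259). With median scaling, which moved all probes of that comparison by 0.18, Car7 was called (0.59, adjusted p = 0.00537). Its mean was 2.12 in the deficient Ttpa-/- mice, 1.70 in the deficient wild-type mice and 2.01 in aged normal-diet wild-type cerebellum. For Car10 these means were 3.91, 3.58 and 3.70. Neither gene was called in deficient Ttpa-/- mice against the normal diet. Car11, the third inactive member, differed by -0.42 (adjusted p = 0.055) in supplemented Ttpa-/- cerebellum against the normal diet. Car12, Car13 and Car14 were not called in any comparison of the genotypes. Car14 differed by -0.46 (adjusted p = 0.12) in the cerebellum and by -0.43 (adjusted p = 0.142) in the cortex on the deficient diet. Without wild-type replicate 4 it was called lower in the cerebellum (-0.64, adjusted p = 0.0278) and, without wild-type replicate 4 of the cortex, in the cortex (-0.61, adjusted p = 0.0371).

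Diet changed few members within a genotype. In wild-type cerebellum 1 of 10 members was called on the deficient against the normal diet (background 1.27%), and this was Car2, the most active cytosolic enzyme and one that oligodendrocytes make in quantity. Car2 read 4.22, 4.03, 4.25 and 4.00 on the normal diet and 2.92, 3.34, 3.67 and 3.84 on the deficient diet, so that the groups, which shared a slide, did not overlap. It fell by 0.68 on the log2 scale (SE 0.16, adjusted p = 0.0194), and without replicate 1 of the deficient diet the difference was -0.51 (adjusted p = 0.15). The call was also lost without replicate 2 of the deficient diet, without replicate 1 or replicate 3 of the normal diet, and with these groups fitted alone, with adjusted p of 0.0626, 0.0736, 0.0618 and 0.15. Oligodendrocyte markers moved the same way: 2 of 9 were called, Opalin (-1.39) and Mag (-0.82), and 0 of 9 were higher. Their summed level ran from 252 to 283 on the normal and from 164 to 267 on the deficient diet, and the part of these cells in the Car2 difference was not tested. The second Car4 probe was also called in that comparison (-0.73, adjusted p = 0.0432, groups overlapping) where the brighter one differed by -0.33 (adjusted p = 0.285). Besides Car2, 1 member passed the adjusted p there without the fold change. In wild-type cortex, Car2 differed by -0.50 (adjusted p = 0.139), and 0 of 10 members were called by limma (background 0.223%), with 2 at an unadjusted p under 0.05 and 0 by the methods' t-test. Car2 was called there with array weights (-0.60, adjusted p = 0.00324), without replicate 4 of the normal diet (-0.65, adjusted p = 0.0398) and without replicate 4 of the deficient diet (-0.63, adjusted p = 0.0314).

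In Ttpa-/- mice, 0 of 9 tested members were called between the deficient and the supplemented diet in either region. In the cortex 3 members had an unadjusted p under 0.05 by limma, 0 passed the methods' t-test with the fold change, and the background was 3.31%. In the cerebellum 0 had an unadjusted p under 0.05, 0 passed the methods' t-test, and the background was 0.343%. Car4 passed the adjusted p in the cortex without the fold change (0.51, SE 0.18, adjusted p = 0.0486). It was called at 0.62 (adjusted p = 0.0197) without the deficient arrays numbered 4, and at 0.60 (adjusted p = 0.0374) without replicate 2 of the supplemented diet.

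With age, Car13 was called higher in both regions, and neither call held in every alternative. Car13, a cytosolic enzyme whose gene lies beside Car3 and Car2 on chromosome 3, read -5.15, -3.39, -3.73 and -3.82 in the cortex of young wild-type mice and -2.33, -2.69, -2.97 and -2.71 in aged ones. It rose 2.54-fold between groups that did not overlap (log2 difference 1.35, SE 0.28, adjusted p = 0.00267). The call was lost with the normexp correction (0.43, adjusted p = 0.0745) and with these groups fitted alone (adjusted p = 0.132). In the cerebellum it read from -2.26 to -2.08 in young and from -1.62 to -1.04 in aged mice, and rose 1.79-fold (0.84, SE 0.28, adjusted p = 0.0458). That call was lost in 7 of the 8 fits that left out an array, with adjusted p up to 0.137, and only without replicate 3 of the aged mice was it kept. It was also lost with the replicate number as a block (adjusted p = 0.0583), with median scaling (0.14), with quantile normalization (0.0582) and with no filter on dim probes (0.0707). The aged and young arrays shared a slide in the cortex and not in the cerebellum.

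Car3 and Car12 were also called with age in the cerebellum, making 3 of 10 members (background 5.03%), while Car13 was 1 of 10 in the cortex (background 2.09%). Car3 read -6.42, -5.14, -6.36 and -4.10 in young mice, with 1 of 4 arrays well above background, and -3.57, -4.18, -3.52 and -4.21 in aged mice. The highest young array overlapped the aged ones. Car3 was tested through the aged arrays alone, and its fitted difference of 1.63 (SE 0.46, adjusted p = 0.0174) is one from levels mostly at background. Its call was lost without replicate 1 (adjusted p = 0.0924) or replicate 3 (adjusted p = 0.0787) of the young mice, and without replicate 1 (adjusted p = 0.0571) or replicate 3 (adjusted p = 0.0561) of the aged mice. It was also lost with median scaling (adjusted p = 0.0538), with normexp (0.36, adjusted p = 0.121) and with these groups fitted alone (adjusted p = 0.118). Muscle and fat markers, of which 1 of 6 could be tested, gave 1 lower with age in the cerebellum, Acta1 (-0.62). Red blood cell markers rose, 4 of 5 called, with a summed level of 9.79 to 24.9 in young and 38.5 to 272 in aged mice, and so did 5 of 6 microglial markers (11.8 to 15.7 and 27.0 to 30.9). In the cortex 1 of 5 red blood cell and 2 of 6 microglial markers were called higher with age, and 3 of 7 striatal markers lower. Their part in the Car3 and Car13 differences was not tested. In the cortex Car3 differed by -0.29 with age (adjusted p = 0.862). The change with age was not called as different between the regions for any member (0 of 10 by limma, 2 at an unadjusted p under 0.05, background 1.46%), and for Car3 that difference was 1.92 (SE 0.65, adjusted p = 0.157). It was called only without replicate 4 of the young cerebellum (2.39, adjusted p = 0.0262).

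**Figure D4:**
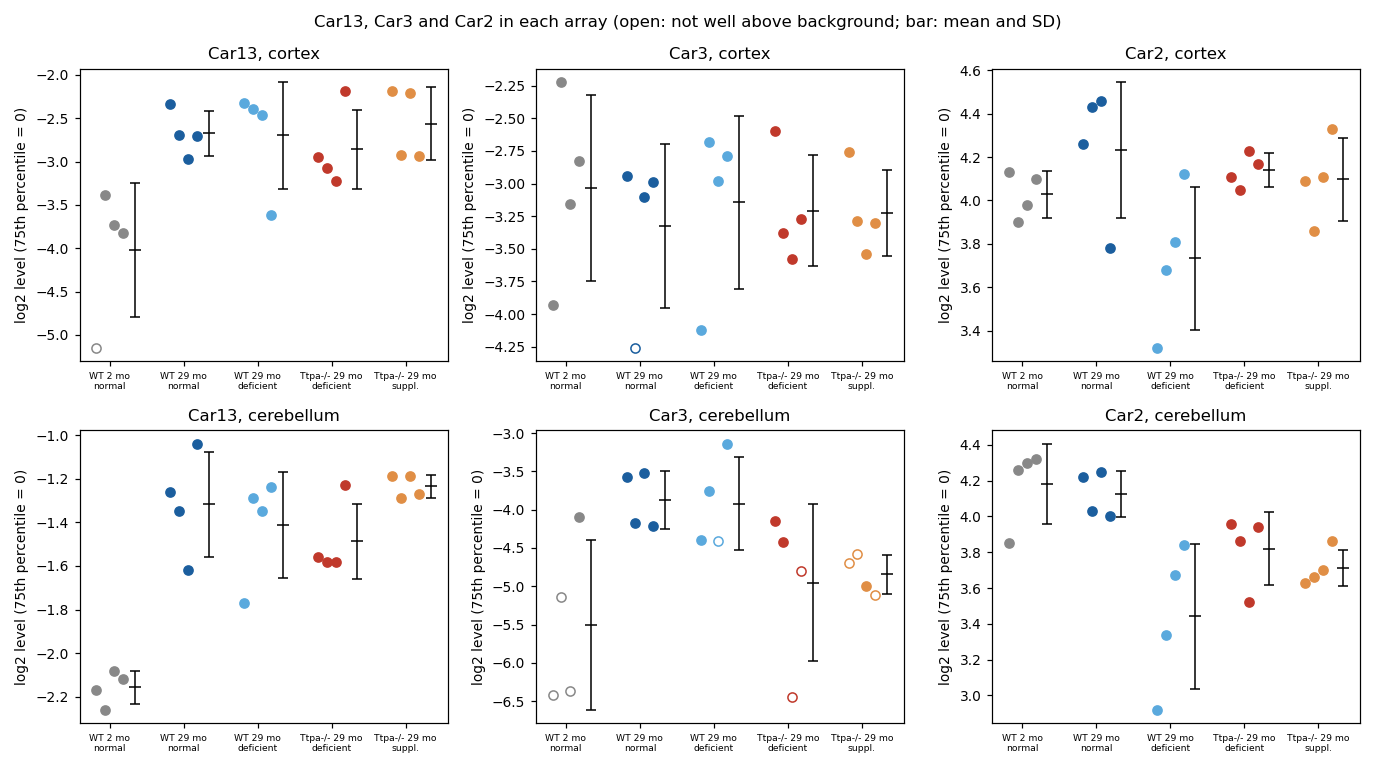
Level of Car13, Car3 and Car2 in each array by region and group, as log2 intensity relative to the 75th percentile. Open points were not well above background, and bars give the mean and SD of 4 arrays. Car13 is lower in young than in aged wild-type mice in both regions, and Car2 in deficient wild-type cerebellum lies between 2.92 and 3.84, below the normal diet.

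Car12, which encodes a transmembrane enzyme, read 1.67, -1.18, -1.96 and -1.39 in young cerebellum and -2.10, -2.61, -2.51 and -2.59 in aged cerebellum. The fitted difference was -1.73 (SE 0.49, adjusted p = 0.0169), and without the first young array, which stood far above the others, it was -0.94 (adjusted p = 0.135). With these groups fitted alone the adjusted p was 0.216. Markers of the choroid plexus, the epithelium that makes cerebrospinal fluid, moved with it. All 9 listed markers were on the arrays, and 4 were called lower with age in the cerebellum: Ttr, Kcne2, Krt18 and Kl. Their summed level was 251, 32.6, 11.6 and 8.91 in the young arrays, in the order of the Car12 values above, and 5.57 to 6.5 in the aged arrays, where Kcne2 was above background on 0 of 4 arrays and each of the other 8 markers on at least 1. In young cortex the array with the lowest Car12 level (0.53, against 2.09 to 2.25) had a summed level of 2.67, against 117 to 136. The part of the choroid plexus in the Car12 values was not tested.

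**Figure D5:**
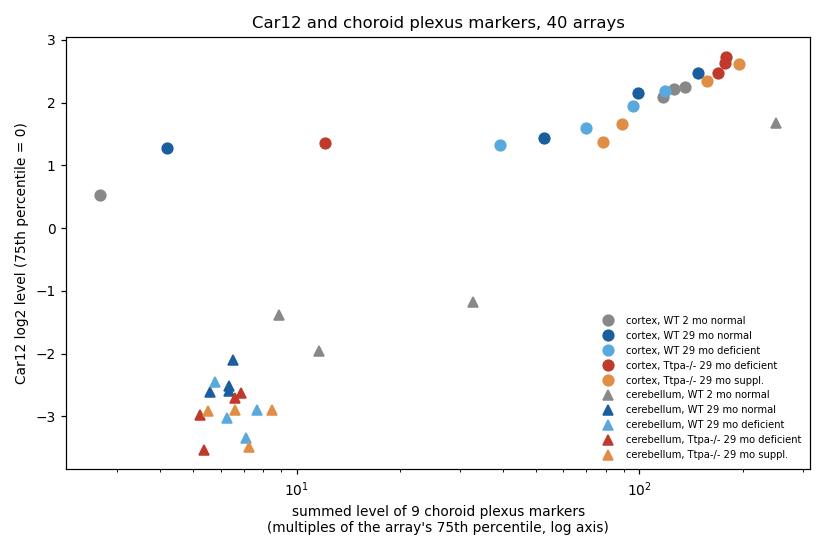
Level of Car12 (log2 intensity relative to the 75th percentile) against the summed level of 9 choroid plexus markers on a log axis, for the 40 arrays. Circles are cortical and triangles cerebellar arrays, coloured by group. The young cerebellar array with a summed level of 251 has a Car12 level of 1.67, and the other cerebellar arrays lie at or below -1.18.

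Between the regions, 5 of 10 members were called at 2 months (background 38.4%) and 4 of 10 at 29 months (background 33.6%) in wild-type mice on the normal diet. Besides Car8, Car13 was higher in the cerebellum (1.86 and 1.36), and Car11, whose secreted product binds neurexins, was lower (-1.53 and -1.32). Car12 was lower in the cerebellum as well (-2.49 and -4.28), and Car3 was called at 2 months (-2.47, adjusted p = 2.39e-05) and not at 29 months (-0.55, adjusted p = 0.321). Cortex and cerebellum of these mice lay on different slides. The effect of the deficient diet did not differ between the regions by test for any of the 10 members, in wild-type mice against the normal diet (2 at an unadjusted p under 0.05, background 0.0126%) or in Ttpa-/- mice against the supplemented diet (1 at an unadjusted p under 0.05, background 0.0441%).

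Of the 6 other carbonic anhydrases on the arrays, Car1, Car5a, Car5b, Car6, Car9 and Car15, between 3 and 5 could be tested in the comparisons of the genotypes, and none was called by limma. At an unadjusted p under 0.05 there were 0 to 2 of them per comparison. Car6 was on 0 of 40 arrays well above background. Car9, an enzyme induced by low oxygen, fell with age in the cerebellum (-1.66, SE 0.32, adjusted p = 0.00049), and its change with age differed between the regions (-1.88, SE 0.46, adjusted p = 0.0227).

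Genes that work with the family were taken from a list of 28 transporters of bicarbonate, protons and lactate, with the inositol trisphosphate receptors and Aqp4, all of which were on the arrays. In the cerebellum 1 of 28 was called in deficient Ttpa-/- mice against the normal diet, the lactate transporter Slc16a3 (-0.60, SE 0.15, adjusted p = 0.00721), beside 4.46% of all probes. None of the 28 was called there in supplemented Ttpa-/- mice or between the genotypes on the deficient diet, with 6 and 6 at an unadjusted p under 0.05 by limma. In deficient Ttpa-/- cortex against the normal diet 2 of 26 were called, the anion exchanger Slc4a2 (0.74) and the lactate transporter Slc16a1 (0.64), beside 4.75% of all probes, and the 3 other cortical comparisons of the genotypes gave 0 of 27, with 3, 7 and 1 at an unadjusted p under 0.05. The median of the list lay between -0.09 and 0.13, beside -0.02 to 0.00 for all tested probes. Itpr1, whose product CAR8 binds, was not called in any comparison of the genotypes. It passed the adjusted p without the fold change in deficient Ttpa-/- against normal-diet cortex (-0.29, adjusted p = 0.0144), and it was higher in the cerebellum than in the cortex by 1.96 at 2 months. With age in the cerebellum, Slc16a3 (1.22, adjusted p = 3.46e-07) and Itpr3 (0.96, adjusted p = 1.77e-10) rose, 2 of 28, beside 5.03% of all probes.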

How the data were processed

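Gene expression was measured in 40 Agilent 1-colour arrays of mouse cortex and cerebellum, 4 arrays for each of 10 groups named by the labels. The authors deposited for each array the scanner's processed intensity (Feature Extraction 10.7.3.1 per the file headers), and a table of log2 values that the authors deposited, normalized and centred, which differed from the scaled intensity used here by a median of 0.000915 and served as an alternative. Here log2 intensity was scaled to the 75th percentile of each array, spots of a probe were averaged, and 92 of 55681 gene probes were left out for flagged spots. Saturated probes numbered 0. The number of arrays limits the precision.

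All 40 arrays were fitted with limma 3.58.1 in R 4.3.3, with a coefficient for each group and Benjamini-Hochberg adjustment over the probes tested in a comparison. A probe was tested if well above background on all 4 arrays of a compared group. Where a gene had several probes, the one with the highest mean over all arrays stood for it. All 10 members are named, and for other genes those of the lists that were called, and the 3 probes per region most correlated with Car8. The script was tested on simulated data. Positions are those of mm9 in the scanner files, and all member accessions matched the RefSeq table.

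The members and the lists were chosen with earlier results of these data known. Whether cortex and cerebellum came from the same mice is not given in the sources used here, and comparisons of the regions treated the arrays as independent. In deficient Ttpa-/- mice 4 of 4 cortical arrays correlated best, after group means were subtracted, with the same-numbered cerebellar array. Those correlations were low (0.0521 to 0.204), and in the other groups 1 to 3 of 4 cortical arrays did so. The labels number the arrays within groups: every same-numbered pair correlated over 0.1 in 1 of 15 comparisons, that of the diets in Ttpa-/- cortex, and the numbers were not used in the fit. Alternatives were median scaling, quantile normalization, normexp, the log2 table, other filters, array weights, the replicate block, the compared groups alone, other rules for probes and calls, the methods' t-test and each array left out.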

Additional observations from a re-analysis of the deposited data

Results flagged for a closer look

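In 15 of the 120 sets of 4 arrays (a probe in a group), the highest or lowest array stood far from the other 3 relative to their range, and chance gives about 1 in 20 such sets. Of these, 5 were arrays numbered 4 of the deficient Ttpa-/- mice. In the cerebellum replicate 4 read 3.65 on the brighter and 3.29 on the dimmer Car8 probe, 4.16 on the brighter Car4 probe and -1.23 for Car13, and in the cortex it read -4.91 on the dimmer Car8 probe, without being above background there.

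Car8 read -4.90 in replicate 3 of supplemented Ttpa-/- cortex, where no array was above background. Car12 read 0.53 in replicate 4 of young cortex and -3.48 in replicate 2 of supplemented Ttpa-/- cerebellum. Car13 read -3.62 in replicate 4 of deficient wild-type cortex, and Car3 read -4.26 in replicate 2 of aged normal-diet cortex. Car2 read 3.85 in replicate 1 and Car7 read 1.82 in replicate 4 of young cerebellum. The dimmer Car4 probe read 1.72 in replicate 4 of aged normal-diet cerebellum. Car7 read 2.17 in replicate 1 of deficient Ttpa-/- cortex, and Car14 read 0.99 in replicate 2 of deficient Ttpa-/- cerebellum.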

How the results depend on the processing

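Of 3360 values of single members under an alternative of the limma fit, 3305 kept their side of the threshold, 36 lost a call and 19 gained one. No called value changed sign, while 144 of the 3305 changed sign without a call in either fit. The 3360 values leave out deficient Ttpa-/- against normal-diet cortex, the comparison behind the choice of Car8. There Car4 fell short of a limit in 8 of 19 alternatives and Car8 in 1 of 19, and the Car8 difference shrank from -2.71 to -1.02 with normexp. Car8 was called by limma in all 19 alternatives for deficient and all 18 for supplemented Ttpa-/- against normal-diet cerebellum, but with the methods' t-test after Benjamini-Hochberg adjustment it was lost in the first of these. The causes of the changes below were not tested.

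The counts of members called that moved were these. Median scaling gave 1 instead of 2 in deficient Ttpa-/- against normal-diet cortex and 1 instead of 3 with age in the cerebellum. Median scaling shifted all probes by up to 0.18 in a comparison of groups, and by -0.27 in the difference between the regions in the diet effect of wild-type mice. Normexp gave 1 instead of 2 in deficient Ttpa-/- against normal-diet cortex, and 0 instead of 1 in supplemented Ttpa-/- cortex against either wild-type diet and with age in the cortex. Array weights gave 2 instead of 1 in deficient Ttpa-/- against normal-diet cerebellum and 1 instead of 0 between the diets in wild-type cortex. With the compared groups alone, the count was 0 in all 4 cortical comparisons of the genotypes (instead of 2, 1, 1 and 1), 0 instead of 2 on the deficient diet in the cerebellum, 0 instead of 1 for the diets in wild-type cerebellum and for age in the cortex, 1 instead of 3 for age in the cerebellum, and 2 instead of 1 in supplemented Ttpa-/- against normal-diet cerebellum. Counting any probe gave 2 instead of 1 in the latter comparison and for the diets in wild-type cerebellum. With no fold threshold the counts were 4 instead of 2 on the deficient diet in the cerebellum, 1 instead of 0 for the diets in Ttpa-/- cortex and 2 instead of 1 for those in wild-type cerebellum. The mean of the probes gave 1 instead of 2 in deficient Ttpa-/- against normal-diet cortex and on the deficient diet in the cerebellum. Leaving out both arrays numbered 4 of deficient Ttpa-/- mice, chosen after seeing the data, gave 1 instead of 0 for the diets in Ttpa-/- cortex. The methods' t-test with unadjusted p gave 3 instead of 1 in supplemented Ttpa-/- against normal-diet cerebellum and 2 instead of 1 with age in the cortex. With Benjamini-Hochberg adjustment it gave 0 in all 4 cortical comparisons of the genotypes, in deficient Ttpa-/- cerebellum against either wild-type diet, for the diets in wild-type cerebellum and for age in the cortex, and 1 for age in the cerebellum.

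Leaving out 1 array gave 1 to 2 members in deficient Ttpa-/- against normal-diet cortex and on the deficient diet in the cortex, 1 to 3 on the deficient diet in the cerebellum, 0 to 1 for the diets in either wild-type region and in Ttpa-/- cortex, 0 to 2 for age in the cerebellum, 5 to 6 between the regions at 2 months, and 0 to 1 for the difference between the regions in the change with age. With the replicate number as a block, the count for the diets in Ttpa-/- cortex, where every same-numbered pair correlated over 0.1, was 0 as without it. Elsewhere the block changed the count only for age in the cerebellum, to 2. No fit had the slide as a block, as every group lay on 1 slide. The Car8 levels near background in the cortex bound its fall there, and 4 arrays per group limit all intervals.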
